A study of Homo sapiens with 12 samples.

Results

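SPA2 is a long noncoding RNA of the Prader-Willi region on human chromosome 15, and it was followed here as the plus strand of chr15:25287121-25303326 of build hg19, 16206 nt from the first base of SNORD109A. Its members are all positions that the deposited iCLIP lists place in that interval on that strand. There were 442 such lines out of 1162690 in all 12 libraries, and they fell on 385 distinct nucleotides. Nucleotides are numbered below from 1 at the first base of SPA2 (nt 1) to 16206 at its end, and the interval was also divided into 6 equal sections of 2701 nt.

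The cells were H9, an established human embryonic stem cell line, as wild type (WT) or as the line labelled P-KO, whose source label reads H9 SPA PKO. All cells received ultraviolet light at 400 mJ/cm2, which joins proteins to the RNA they touch, and RNA was recovered with antibodies to RBFOX2 (written FOX2), TDP43 or hnRNP M. Each of the 6 groups of protein and genotype had 2 libraries, which the design text calls biological replicates. The labels do not state which bases P-KO cells lack, whether the line is 1 clone, or which of 2 culture media each library came from. The deposited lists name transcripts by Ensembl identifiers that could not be paired with symbols here, so the stem cell label was not checked against marker genes.

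SPA RNAs begin with a small nucleolar RNA at the 5′ end in place of a cap, end in a poly(A) tail, and are made from the long transcript that continues past SNURF-SNRPN. They are known in human pluripotent cells for gathering near their site of transcription with several splicing regulators. FOX2 is a splicing regulator that recognises GCAUG, TDP43 is a nuclear protein that prefers RNA rich in GU repeats, and hnRNP M regulates splicing as well. iCLIP reads the end of a cDNA near the crosslinked base, so a listed position lies close to where one of these proteins touched the RNA.

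A listed count was taken to cover the 11 nt centred on its position, since isolated pairs of positions up to 5 nt apart mostly carried the same count. Window counts are therefore sums over listed positions at least 11 nt apart, taken from the highest count down, and CPM is window counts per 1000000 window counts of the same library. The libraries held between 58191 and 648651 window counts. The fewest listed lines were those of hnRNP M, 7621 to 37370 per library, and the most were 319582 in FOX2 P-KO replicate 2. The lists leave out values under the authors' limit, and the lowest count listed inside SPA2 ranged from 2 to 5 between libraries, so a library without a line is written as listed at 0. No bound or ratio was computed from such a value, and a fitted log2 difference for a group whose libraries are all listed at 0 depends on the prior count of the fit and is no bound. PCR copies may be among the counts, and the number of sequenced reads per library is not given in the sources used here.

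All 3 proteins were listed on SPA2 in WT cells, and SPA2 was nearly empty in P-KO cells. FOX2 had 205 and 279 window counts in its WT libraries, 937 and 966 CPM, with a mean of 952 ± 20.6 CPM (SD, n = 2). FOX2 P-KO replicate 1 was listed at 0, and replicate 2 had 9 window counts, 13.9 CPM. TDP43 had 137 and 120 window counts in WT, 659 and 424 CPM, with a mean of 542 ± 166 CPM (SD, n = 2). In P-KO cells TDP43 had 3 and 6 window counts, 17.4 and 20.5 CPM. hnRNP M had 166 and 263 window counts in WT, 2694 and 2130 CPM, with a mean of 2412 ± 399 CPM (SD, n = 2), and both of its P-KO libraries were listed at 0. Every WT library was thus above every P-KO library, with no overlap for any protein. That order over all 12 libraries was found in 35 of the 11474 bins of this length that were tested along the genome (0.305%).

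**Figure D1:**
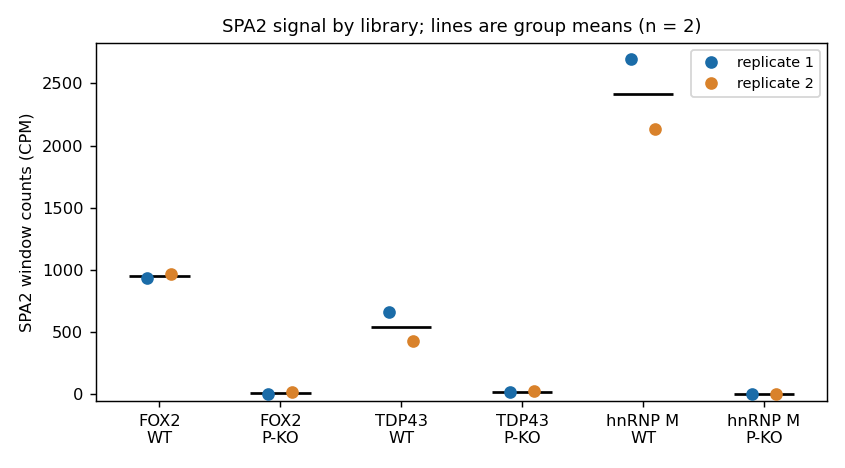
SPA2 window counts in CPM on the vertical axis for each of the 6 groups on the horizontal axis. Points are single libraries and lines are the means of 2 libraries. The WT points lie between 424 and 2694 CPM, and no P-KO point is above 20.5 CPM.

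The difference between genotypes was tested with edgeR's quasi-likelihood test on all strand-specific bins of the length of SPA2, with Benjamini-Hochberg adjustment over the 11474 bins and a threshold of 0.05. Taken as 1 effect common to the proteins, SPA2 fell by 6.44 on the log2 scale in P-KO cells (SE 0.974, adjusted p = 1.10e-07). Bins called in that comparison were 10 of 11474 (0.0872%), all lower in P-KO. The size of this fitted value depends in part on the prior count, because 3 of the 6 P-KO libraries were listed at 0. The direction and the call held in each of the 24 alternative fits that gave a value. The libraries hold RNA from bulk cultures, so fewer cells with the RNA and less RNA per cell cannot be told apart, and without a measure of RNA level neither can less SPA2 RNA and less binding to it. The p-values measure the spread between these cultures only.

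Protein by protein, the calls were fewer. For hnRNP M the adjusted p was 0.00239 in edgeR, in a comparison that called 7 of 11474 bins (0.061%). That call was lost without hnRNP M P-KO replicate 1 (adjusted p = 0.575) or replicate 2 (adjusted p = 0.429), and with only the 4 hnRNP M libraries in the fit (adjusted p = 0.0586). For FOX2 the fitted log2 difference was -6.37 (SE 1.53) and missed the threshold (adjusted p = 0.0609; 2 bins called, 0.0174%), while DESeq2 gave an adjusted p of 3.11e-09 (10 bins called, 0.0872%). The FOX2 difference passed in edgeR without any 1 of the 4 hnRNP M libraries, with adjusted p between 0.00349 and 0.0395. For TDP43 the difference was -4.84 (SE 1.44) and was not called (adjusted p = 1.00; 2 bins called, 0.0174%), although the unadjusted p was 0.000756 and DESeq2 gave an adjusted p of 7.80e-05 (7 bins called, 0.061%). A difference in the P-KO effect between proteins was not called, with an adjusted p of 0.777 for the interaction in edgeR. No bin of the genome passed that interaction test (0%), and 585 bins had an unadjusted p under 0.05 (5.1%).

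**Figure D2:**
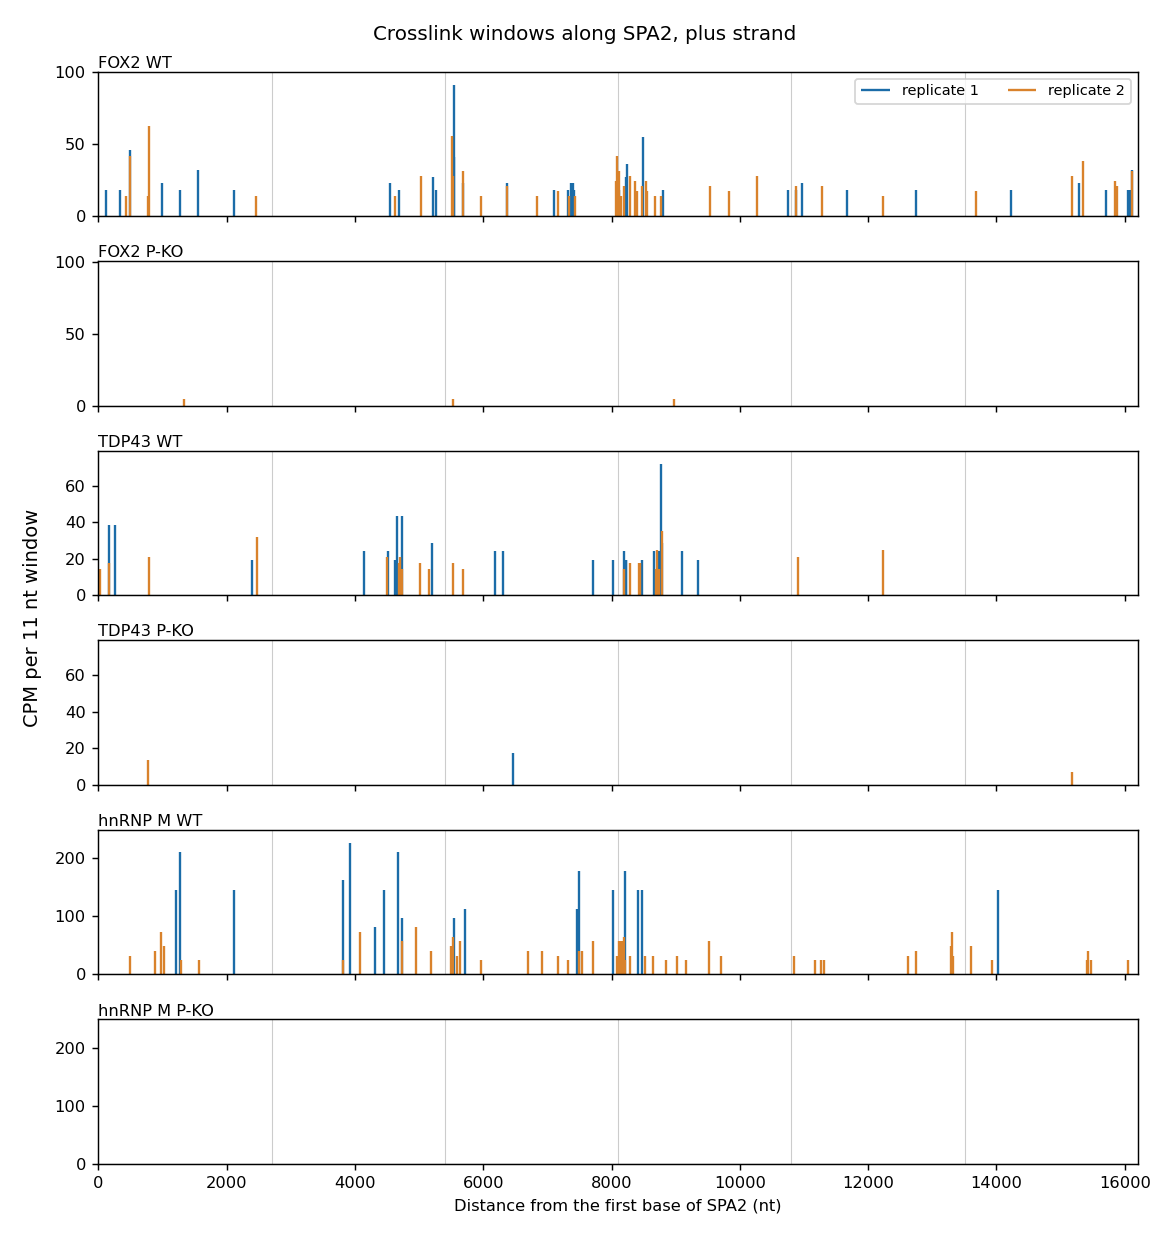
CPM of each 11 nt window (vertical axis) against distance from the first base of SPA2 in nt (horizontal axis), with 1 panel for each protein and genotype and colours for the 2 replicates. WT windows run from nt 20 to nt 16116, and P-KO panels hold 6 windows in all.

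By the authors' annotation the WT and P-KO positions were nearly all intronic. Intron 3 of ENST00000552781.1 held 360 of the 442 lines (81.4%), from nt 20 to nt 9091, and its intron 4 held 22 more between nt 9348 and nt 11305. Intron 1 of ENST00000549804.2 held 55 lines (12.4%), from nt 9827 to nt 16118, and intron 3 of ENST00000547292.1 held 3 lines. The other 2 lines were exonic, at nt 8717 and nt 9164. In WT cells the signal thus followed the interval through introns of several annotated transcripts. No position on the minus strand of the interval was listed in any library.

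The proteins were spread unevenly along SPA2. The count-weighted median position lay at nt 7324 and nt 8108 in the FOX2 libraries, at nt 7708 and nt 5681 in those of TDP43, and at nt 4736 and nt 8109 in those of hnRNP M. These medians overlapped between proteins, and the hnRNP M libraries differed from each other by more than the FOX2 or TDP43 libraries did. Most of SPA2 lay outside the windows, which covered 198 to 583 nt of it in a WT library. The longest stretches without a listed position in any library were the 1347 nt after nt 2466 and the 942 nt after nt 14232. The first of them lies between the 5′ sites and the denser middle of the RNA, the second before a last group of mostly FOX2 sites.

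In the 6 sections, FOX2 was highest in section 3, with 276 ± 3.70 CPM, and section 4, with 241 ± 70.0 CPM (SD, n = 2 here and for the other sections). Its lowest sections were section 2, with 64.2 ± 32.0 CPM, and section 5, with 66.6 ± 15.8 CPM. Section 1, which opens with SNORD109A, had 160 ± 20.0 CPM of FOX2 and section 6 had 144 ± 22.2 CPM, so FOX2 reached both ends of SPA2 in both libraries. TDP43 was highest in section 4, with 294 and 155 CPM in its 2 libraries, and in section 2, with 183 and 106 CPM. hnRNP M had 600 ± 459 CPM in section 2, 592 ± 81.0 CPM in section 3 and 515 ± 62.4 CPM in section 4, and its libraries lay far apart in section 2 (925 and 275 CPM). Sections 5 and 6 held 166 CPM of hnRNP M each, but in section 5 that came from replicate 2 alone.

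**Figure D3:**
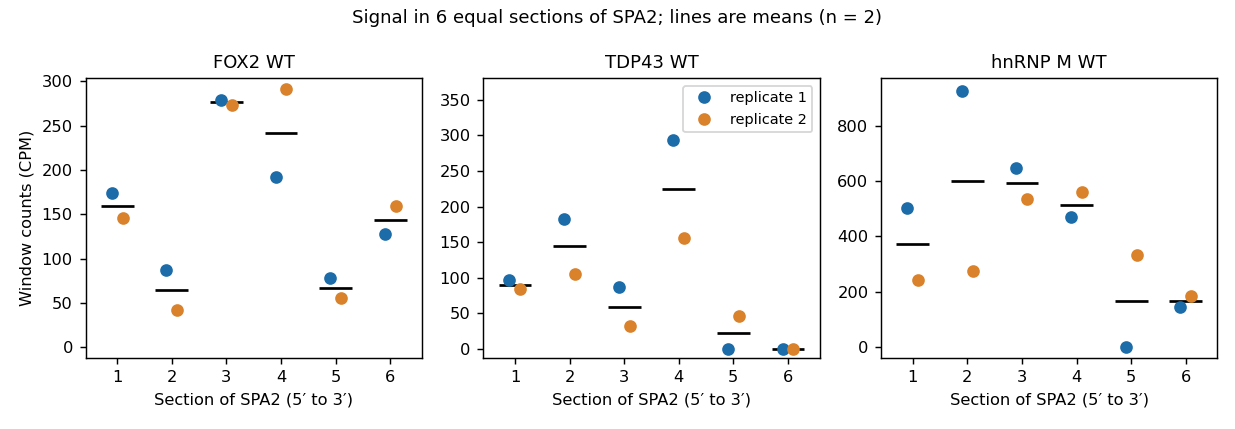
Window counts in CPM (vertical axis) in the 6 equal sections of SPA2 from 5′ to 3′ (horizontal axis) in WT cells, 1 panel per protein. Points are libraries and lines are means of 2 libraries. TDP43 was listed at 0 in section 6 in both libraries, where FOX2 had 128 and 159 CPM.

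TDP43 was thinly listed toward the 3′ end. Sections 5 and 6 together held 22.0% and 22.2% of the FOX2 window counts in SPA2, 0% and 10.8% of those of TDP43, and 5.42% and 24.3% of those of hnRNP M. Section 6 had 28 and 46 window counts of FOX2, 9 and 23 of hnRNP M and none of TDP43. The difference between FOX2 and TDP43 there narrowly missed the threshold over the 7407 bins of this length tested (edgeR, adjusted p = 0.0571, unadjusted p = 0.00145). In that comparison 148 bins were called (2%), and none of the 6 SPA2 sections was among them. Section 6 passed with DESeq2 (adjusted p = 0.0294, 7.14% of bins called) and, in edgeR, with only the libraries compared (0.00855) and with no TMM scaling (0.0438). It missed in edgeR with robust fits (adjusted p = 0.0619) and with no filter (0.988). Without either of the TDP43 WT libraries the adjusted p was 0.300 or 0.337, and without either of the FOX2 WT libraries 0.371 or 0.318.

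Other differences between proteins in WT were not called with window counts and all 12 libraries. Over the whole of SPA2 the edgeR log2 difference of FOX2 over TDP43 was 0.90 (SE 1.19, adjusted p = 1.00; 46 bins called, 0.401%). That of TDP43 over hnRNP M was -0.89 (SE 1.19, adjusted p = 0.828; 33 bins called, 0.288%). That of FOX2 over hnRNP M was 0.01 (SE 1.18, adjusted p = 1.00; 254 bins called, 2.21%), and it turned to -1.34 with no TMM scaling, the side on which the CPM lie. By CPM the order of the proteins on SPA2 was hnRNP M over FOX2 over TDP43, and none of these 3 differences passed. With the number of windows in place of window counts, hnRNP M was above FOX2 (log2 of FOX2 over hnRNP M -1.26, adjusted p = 0.0481) and above TDP43 (-1.73, adjusted p = 0.0148) in edgeR. That setting tested 1584 bins and called 448 of them for FOX2 against TDP43, a comparison in which SPA2 was not called. The share of bins called in the comparisons with hnRNP M is not set beside these calls. The calls with hnRNP M are therefore not read as particular to SPA2. No section was called between FOX2 and hnRNP M (585 bins called, 7.9%) or between TDP43 and hnRNP M (238 bins called, 3.21%). Of the 18 tests of a section between proteins, 2 had an unadjusted p under 0.05, both of them in section 6 and with TDP43. Over all bins of this length an unadjusted p under 0.05 was more common, at 24.2% for FOX2 and TDP43, 25.5% for FOX2 and hnRNP M and 24.1% for TDP43 and hnRNP M.

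The fall in P-KO cells was found along most of SPA2. In the effect common to the proteins, 5 of the 6 sections were lower in P-KO, in a comparison that called 29 of 7407 bins (0.392%), all lower. The edgeR adjusted p was 0.00917 in section 1, 0.000385 in section 2, 0.00774 in section 3, 0.000210 in section 4 and 0.0137 in section 5. Section 6 was not called (adjusted p = 0.893), and there TDP43 was listed at 0 in WT and had 2 window counts in P-KO replicate 2. Without that library section 6 was called (adjusted p = 0.0390), as were sections 1, 2 and 4, and sections 3 and 5 were not. The number of sections called dropped to 2 without FOX2 WT replicate 1 or replicate 2, and to 3 without FOX2 P-KO replicate 1 or TDP43 P-KO replicate 1. Sections 2 and 4 were called in all 4 of these fits. For single proteins edgeR called no section and no bin of this length (0% for each), and at an unadjusted p under 0.05 FOX2 had 6 sections (4.39% of all bins of this length), hnRNP M 6 (8.61%) and TDP43 3 (2.35%). DESeq2 called 4 sections with FOX2 (0.243% of all bins), 4 with hnRNP M (0.189%) and 1 with TDP43 (0.0675%).

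Positions from all 12 libraries that lay up to 10 nt apart were joined into sites, so that neighbouring 11 nt windows of a site overlap. SPA2 held 130 sites, with a median length of 4 nt and a longest of 60 nt, and 127 of them were listed in WT. FOX2 was listed at 63 WT sites, TDP43 at 37 and hnRNP M at 64. Most sites were seen once, with 92 of the 130 found in a single library. Both WT libraries were listed at 9 FOX2 sites (14.3% of its sites), 4 TDP43 sites (10.8%) and 5 hnRNP M sites (7.81%). Across all other WT sites of the genome those shares were 2.79%, 3.37% and 0.303%. In the stretch of the same length just before SPA2 they were 4.76%, 11.8% and 2.33%. In the stretch just after it they were 34.3%, 18.4% and 6.15%, so high shares were not particular to SPA2. These shares are a description and were not tested.

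The strongest FOX2 site was at nt 5509 to 5548 (chr15:25292629-25292668), in section 3. It carried 29 and 24 FOX2 window counts in WT, a mean of 108 CPM, as the sum of several windows over 40 nt. The highest window of FOX2 WT replicate 1 anywhere in SPA2, with a count of 20, lay in it at nt 5537. The second was at nt 8075 to 8128 (chr15:25295195-25295248), with 8 and 28 window counts of FOX2, and the next at nt 479 to 492 (chr15:25287599-25287612), near the 5′ end, with 10 and 12. After it came nt 8475 to 8484 (chr15:25295595-25295604) with 12 and 6 and nt 8216 to 8237 (chr15:25295336-25295357), which had 14 in replicate 1 and was listed at 0 in replicate 2. Each of these 5 FOX2 sites was also listed for hnRNP M in WT, at nt 5509 to 5548 in both hnRNP M libraries and at the others in only 1. At nt 16113 to 16118 (chr15:25303233-25303238), close to the 3′ end of the interval, FOX2 was listed alone in both libraries with 7 and 9 window counts.

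TDP43 had its strongest site at nt 8739 to 8798 (chr15:25295859-25295918), the longest site of SPA2, with 30 and 14 window counts, a mean of 96.9 CPM. FOX2 was listed there too, with 4 in each library, and hnRNP M was not. The other leading TDP43 sites were weaker. The site at nt 4732 to 4744 (chr15:25291852-25291864) had 9 and 4 window counts, and that at nt 159 to 165 (chr15:25287279-25287285) had 8 and 5 and no other protein. At nt 4661 to 4671 (chr15:25291781-25291791) TDP43 had 9 in replicate 1 and was listed at 0 in replicate 2, and hnRNP M was listed there too. At nt 251 to 261 (chr15:25287371-25287381) TDP43 had 8 in replicate 1, and no other library was listed. The leading TDP43 site sums several windows over its 60 nt. Its highest single windows had counts of 15 and 10, against 9 at most in any other TDP43 site of SPA2.

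The first hnRNP M site was at nt 8196 to 8205 (chr15:25295316-25295325), with 11 and 8 window counts, a mean of 122 CPM, and another was at nt 7485 to 7491 (chr15:25294605-25294611), with 11 and 5. The sites at nt 3925 to 3926 (14 window counts) and nt 1266 (13) were listed in hnRNP M WT replicate 1 and in no other library. At nt 4661 to 4671 hnRNP M had 13 in replicate 1 and was listed at 0 in replicate 2, beside the 9 of TDP43. Replicate 1 had 61625 window counts over the genome against 123482 in replicate 2, so 1 count is a larger CPM in it. The 5 leading sites lay between 105 and 122 CPM.

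A part of the sites was shared between proteins. Of the 127 WT sites on SPA2, 31 were listed for at least 2 proteins (24.4%), and 6 for all 3 (4.72%). Over all other WT sites of the genome the shares were 1.99% and 0.105%, and the difference was not tested. FOX2 and TDP43 shared 15 sites, which were 23.8% of the FOX2 sites and 40.5% of the TDP43 sites. FOX2 and hnRNP M shared 18, or 28.6% of the FOX2 sites and 28.1% of the hnRNP M sites. TDP43 and hnRNP M shared 10, or 27.0% of the TDP43 sites and 15.6% of the hnRNP M sites. Listed alone were 36 FOX2 sites, 18 TDP43 sites and 42 hnRNP M sites. Down to the single nucleotide, 29 positions were listed for at least 2 proteins in WT and 4 for all 3.

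The ninth kilobase, nt 8001 to 9000, was chosen after its values were seen because shared sites gathered there. It makes up 6.17% of the length of SPA2 and held 20 of the 127 WT sites, 10 of the 31 with at least 2 proteins and 5 of the 6 with all 3. It carried 18.5% and 30.1% of the FOX2 window counts in SPA2, 40.9% and 36.7% of those of TDP43, and 22.9% and 20.9% of those of hnRNP M. Every WT library therefore had a share there above the share of length. FOX2 was listed at 12 sites of this kilobase, TDP43 at 11 and hnRNP M at 12.

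**Figure D4:**
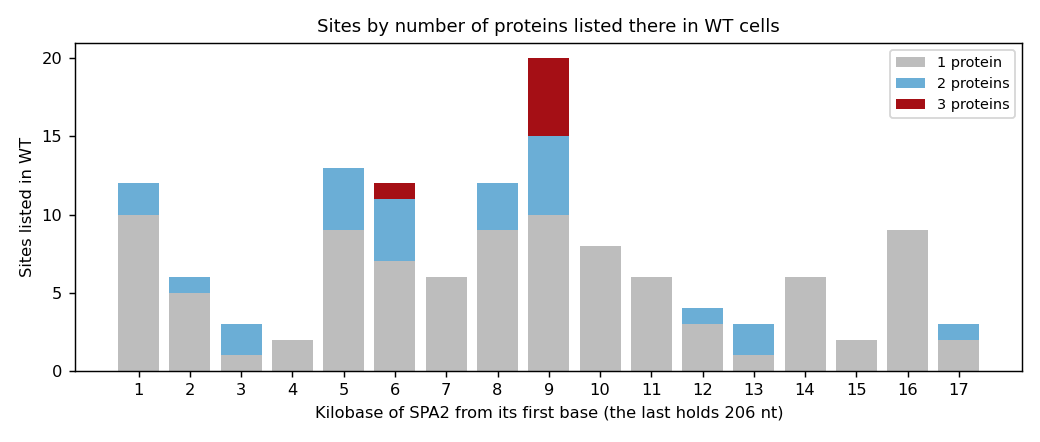
Number of sites listed in WT (vertical axis) in each kilobase of SPA2 from its first base (horizontal axis; the last holds 206 nt), divided by the number of proteins listed. The ninth kilobase is the tallest bar, with 20 sites, of which 5 were listed for all 3 proteins.

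Of the 6 sites with all 3 proteins in WT, the one outside the ninth kilobase was the leading FOX2 site at nt 5509 to 5548. There TDP43 had 5 window counts in replicate 2, hnRNP M had 6 and 8, and the highest windows of TDP43 WT replicate 2 and hnRNP M WT replicate 2 were both at nt 5534. In the ninth kilobase, the site at nt 8196 to 8205 had 6 of FOX2 in replicate 2, 5 and 4 of TDP43, and 11 and 8 of hnRNP M. It was the 3-protein site found in the largest number of WT libraries, 5 of 6, together with nt 5509 to 5548. At nt 8216 to 8237 the 14 counts of FOX2 stood beside 8 of TDP43 in replicate 1 and 3 of hnRNP M in replicate 2. At nt 8475 to 8484 TDP43 had 4 and hnRNP M 9, both in replicate 1. At nt 8289 to 8297 (chr15:25295409-25295417) FOX2 had 8, TDP43 5 and hnRNP M 4, all in replicate 2 and all with their highest count at nt 8293. At nt 8651 to 8677 (chr15:25295771-25295797) FOX2 had 4 in replicate 2, TDP43 5 in replicate 1 and hnRNP M 4 in replicate 2, with highest counts at nt 8675, nt 8662 and nt 8651. None of the 6 was listed in all 6 WT libraries.

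Repeated sharing was rarer. At 4 sites both WT libraries of 2 proteins were listed (3.15% of the 127, against 0.0688% of other WT sites). In the stretches of the same length just before and just after SPA2 that share was 1.03% and 6.12%. TDP43 and hnRNP M met in this way at nt 4732 to 4744, with 9 and 4 window counts of TDP43 beside 6 and 7 of hnRNP M, and at nt 8196 to 8205. FOX2 and hnRNP M did so at nt 5509 to 5548, and FOX2 and TDP43 at nt 8739 to 8798. By the joining rule each pair of proteins thus had at least 1 site listed in all 4 of its libraries. The site of FOX2 and TDP43 is 60 nt long, and not all of its libraries were listed at the same place. Its FOX2 windows, at nt 8796 in replicate 1 and nt 8768 in replicate 2, did not overlap. The highest TDP43 counts there were at nt 8766 and nt 8778.

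P-KO libraries listed 6 sites on SPA2, each in a single P-KO library and with at most 4 window counts. FOX2 P-KO replicate 2 had 3 at nt 1327 (chr15:25288447-25288447), 3 at nt 5509 to 5548 and 3 at nt 8980 to 8984 (chr15:25296100-25296104). TDP43 P-KO replicate 1 had 3 at nt 6466 (chr15:25293586-25293586), and replicate 2 had 4 at nt 780 to 792 (chr15:25287900-25287912) and 2 at nt 15175 to 15185 (chr15:25302295-25302305). No site was listed for more than 1 protein in P-KO. Of the 6 sites, 3 were also listed in WT. FOX2 kept a listing at its leading WT site, where 29 and 24 became 0 and 3. At nt 780 to 792 TDP43 WT replicate 2 had 6 window counts and FOX2 WT replicate 2 had 18. At nt 15175 to 15185 FOX2 WT replicate 2 had 8 and TDP43 was listed at 0 in WT. The FOX2 P-KO library with these lines was also the one with the most window counts of all 12, 648651, and its lowest listed count in SPA2 was 3, against 4 in the FOX2 WT libraries.

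The stretches of the same length on either side were set against SPA2 to see where it differs. In the 16206 nt before it, FOX2 had 302 and 253 CPM in WT, TDP43 1473 and 576 CPM, and hnRNP M 1363 and 1547 CPM. All P-KO libraries were listed at 0 there (edgeR, common effect, adjusted p = 5.98e-12). SPA2 had more FOX2 in both libraries than the stretch before it, and more hnRNP M. In the 16206 nt after it, FOX2 had 7027 and 10163 CPM in WT, TDP43 had 645 and 788 CPM, and hnRNP M 2450 and 2502 CPM. P-KO cells there had 0 and 157 CPM of FOX2 and 11.6 and 20.5 CPM of TDP43, with hnRNP M listed at 0 (common effect, adjusted p = 4.40e-08). The first genes downstream in RefSeq (assembly GRCh38.p14, used for order only) are copies of SNORD116, a repeated snoRNA family, and how the authors placed reads that match several copies is not given in the sources used here. Sites with at least 2 proteins were 15.5% of WT sites before SPA2 and 27.2% after it, on either side of the 24.4% within it. Sites with all 3 were 3.09% before and 10.2% after. By the CPM of every library, TDP43 was above FOX2 before SPA2 and below it within SPA2 and after it. None of the 3 stretches was called for FOX2 against TDP43 in edgeR. The log2 of FOX2 over TDP43 was -1.78 before SPA2 (adjusted p = 0.833) and 3.65 after it (adjusted p = 0.240). The difference between the stretches was not tested.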

How the data were processed

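The submitters' processing notes name GRCh37 (hg19) as the genome and Bowtie as the aligner. Its version, and what called the positions, is not given in the sources used here. For each of the 12 libraries the authors deposited single nucleotides, each with its strand, transcript or intron, and count as a whole number. The deposited lists end in a column of p-values or q-values, unstated which, and none exceeded 0.05. Among isolated pairs of positions, with no other listed position near, those up to 5 nt apart carried the same count in 94.5% to 100%, by library. Isolated pairs further apart did so in 13.9% to 81.4%, and denser groups of positions were not examined. On that basis a deposited count was taken to cover 11 nt. Positions at least 11 nt apart were kept from the highest count down and summed per library.

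Sums in strand-specific bins of 16206 nt and of 2701 nt, in phase with SPA2 over the whole genome, were fitted with edgeR 4.0.16 (R 4.3.3, TMM scaling, quasi-likelihood) over all 12 libraries, with a mean for each protein and genotype, or with protein and genotype as additive terms for the common effect. P-values were adjusted by Benjamini-Hochberg over all bins tested (11474 and 7407). The scripts were tested on simulated counts. Alternatives were DESeq2 1.42.0 and its size factors, no TMM, other filters, robust fits, numbers of windows, other bins, the replicate block, only the libraries compared, each library left out, and other rules for joining or keeping positions.

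SPA2, its 6 sections, the 5 sites of each protein with the highest mean CPM in WT, all sites listed for 3 proteins in WT and all sites listed in P-KO were named by rule. The nt 16113 site, the sites repeated in both libraries of a pair of proteins and the ninth kilobase were added after seeing their values. The interval, the sections and the rules were chosen with earlier results of these data known. Groups and replicate numbers came from the sample titles. Same-numbered libraries of the WT and P-KO groups of a protein deviated together only weakly (r over bins was 0.083 with FOX2, 0.070 with TDP43 and 0.023 with hnRNP M). Over all 15 pairs of groups r ran from 0.0003 to 0.083, and that of FOX2 was the highest. The numbers were taken as names, and the replicate block was fitted as an alternative, in which the FOX2 call changed. Sequences and motifs at the sites were not analysed here, since they need the hg19 genome.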

Additional observations from a re-analysis of the deposited data

How the results depend on the processing

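The fall of SPA2 common to the proteins kept its direction and call in all 24 alternatives that gave a value (log2 -7.03 to -6.05 with 1 library left out), and the interaction stayed uncalled in all 24 (adjusted p 0.497 to 0.932 with 1 library left out). For the results below that changed, the cause was not tested, apart from settings that leave fewer bins, positions or libraries. FOX2 on whole SPA2 passed with DESeq2 (-6.82), its size factors in edgeR (-6.81), no TMM (-6.74), the number of windows (-4.93), the replicate block (-6.57, adjusted p = 0.00832) and the last of the 10 kb bins that touch SPA2 (-10.68), and ranged from -10.83 to -5.58 with 1 library left out, where -10.83 is the fit whose remaining P-KO library was listed at 0 and depends on the prior count. TDP43 passed with DESeq2 (-4.96) and the number of windows (-3.97), and ranged from -5.22 to -4.55. hnRNP M, whose log2 values depend on the prior count, missed with only its own libraries (-10.62) and in the first and last 10 kb bins (-8.01 and -9.32), and ranged from -11.40 to -10.29. FOX2 against hnRNP M in WT, near 0, changed sign with DESeq2 (-0.20), its size factors (-0.20), no TMM (-1.34), at least 20 counts in 2 libraries (-0.61), the number of windows (-1.26, adjusted p = 0.0481) and only the libraries compared (-0.35), and ranged from -0.46 to 0.70, negative without FOX2 WT replicate 2 (-0.12) and without hnRNP M WT replicate 1 (-0.46). TDP43 against hnRNP M passed with the number of windows (-1.73) and changed sign in the first 10 kb bin (0.24). FOX2 against TDP43 kept its direction and stayed uncalled in all 25 alternatives.

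Of the 6 sections, those called for the common fall were 3 with no filter and 3 with the number of windows, and 2 to 5 with 1 library left out. For FOX2 they were 4 with DESeq2, 3 with the number of windows, 2 with only the libraries compared and 0 to 5 with 1 library left out; for TDP43 1, 1 (number of windows) and 0 to 1; for hnRNP M 4 with DESeq2 and 0 to 4. FOX2 against TDP43 gave 1 section with DESeq2, its size factors, no TMM, at least 20 counts, the replicate block, and without mitochondrial and GL000220 positions, 2 with only the libraries compared, and 0 to 1 with 1 library left out. TDP43 against hnRNP M gave 1 with only the libraries compared. With DESeq2, 7.14% of all bins were called for FOX2 against TDP43. The shares in the other settings between proteins are not set beside these counts, which are not read as particular to SPA2. The number of windows left sections without a test (3 of 6 were tested). It called 20 of 615 bins for the common fall, 16 for FOX2 and 9 for TDP43. With no filter 20 of 217863 bins were called for the common fall, and with only the libraries compared 8 of 2989 for FOX2. The replicate numbers were taken as names, and beside the calls given here the block changed no other call on whole SPA2.

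Sites depended on how positions were joined. Joined up to 1 nt apart there were 134 FOX2 and 85 TDP43 sites in WT, 7 TDP43 and 2 hnRNP M sites in both libraries, and 11 shared by FOX2 and hnRNP M, 6 by TDP43 and hnRNP M and 3 by all 3; joined up to 30 nt apart, TDP43 had 7 in both libraries. With counts of 5 or more there were 37 FOX2 and 39 hnRNP M sites, 2 TDP43 sites in both libraries, and 6, 4 and 4 shared by the pairs (FOX2 and TDP43, FOX2 and hnRNP M, TDP43 and hnRNP M) and 2 by all 3. At a p or q of 0.01 or under there were 30 FOX2 and 19 TDP43 sites, 2 TDP43 sites in both libraries, and 5, 9 and 4 shared by the same pairs and 2 by all 3. With 1 library left out, sites ranged from 34 to 64 for FOX2, 21 to 38 for TDP43 and 18 to 65 for hnRNP M, and shared sites from 7 to 15, 4 to 18 and 4 to 10 for the pairs and 3 to 6 for all 3. The share of a library's window counts in SPA2 (FOX2 0.0952%) was 0.0441% by number of windows, 0.329% over windows of 5 or more, 0.0875% without the highest window of each library and 0.0975% without mitochondrial and GL000220 positions. For TDP43 it was 0.0306% by number of windows and 0.134% over windows of 5 or more, and for hnRNP M 0.317% over windows of 5 or more. The FOX2 median position moved to nt 6942.5 over windows of 5 or more. A site missing from a library may lie under its listing limit.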
